A study of Mus musculus with 8 samples.

Results

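The respiratory chain of the mitochondrion is built from subunits of 2 genomes, and the genes examined here are those of the nuclear genome. They were chosen by gene symbol alone: a symbol was taken if it began with Ndufa, Ndufb, Ndufc, Ndufs or Ndufv followed by a number, with Uqcr, with Cox4 to Cox8 followed by the letter a, b or c, or with Atp5, or if it was Sdha, Sdhb, Sdhc or Sdhd, and pseudogenes whose symbols hold "-ps" were left out. This gave 83 of the 38115 genes counted in each tumor: 35 of complex I, 4 of complex II, 8 of complex III, 18 of complex IV and 18 of complex V. The rule itself uses no measured value, but it was set with earlier results of these data known. The symbols do not follow the complexes exactly. Ndufa4 and its paralog Ndufa4l2 were placed in complex IV, where the Ndufa4 protein is found. Cox7a2l, Atp5s and Atp5sl are helper factors and not subunits. Atp5sl, since renamed Dmac2, serves the assembly of complex I but is counted with complex V by its symbol. Atp5l2 is annotated as a processed pseudogene of Atp5l. Some true subunits, such as Cox4i1 and Cyc1, carry other symbols and are described apart.

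RNA-seq was performed on 8 tumors grown from Myc-CaP cells, a mouse prostate carcinoma line driven by a prostate-directed Myc transgene, after injection into the anterior prostate lobe of male FVB mice. An androgen sensitive (AS) and a castrate resistant (CR) form of the line were used, in mice that were either intact or castrated beforehand by surgery. Each phenotype had 2 primary tumors and 2 metastatic tumors described as matched. The tumors are called primary AS1 and AS2, metastatic AS1 and AS2, and likewise for CR. The numbers are names and pair no tumors, since which metastasis came from which mouse is not stated. Neither the age of the mice nor the organ of the metastases is given. All tumors come from 1 line and the mouse of each tumor is not given. The labels do not say which form of the line went into which mice, so that line and host cannot be told apart. A metastasis and its matched primary tumor may share a mouse, but the main tests take the 8 tumors as independent. If tumors share mice, the groups hold fewer independent units than tumors. The p-values measure only the spread between these samples.

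Electrons enter the chain through complex I, which oxidizes NADH, or through complex II, which oxidizes succinate and is also an enzyme of the citric acid cycle. They pass by ubiquinone to complex III, by cytochrome c to complex IV and to oxygen, and the proton gradient built on the way drives complex V, the ATP synthase. All complexes but II also hold subunits encoded in mitochondrial DNA, and many of the nuclear genes share binding motifs of NRF1, of ETS factors such as GABPA, and of YY1 in their promoters.

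The shared promoter letters were read from RefSeq promoters on GRCm38.p6, from 250 bases before to 50 bases after the start, for the 69 of 83 genes found in that table. The NRF1 motif letters GCGCNNGCG stood in the promoters of 28 of the 69 genes (40.6%), against 18.1% of the 17492 protein-coding genes in the table. The ETS letters CCGGAAG were found in 16 (23.2%, against 12.9%), the YY1 letters AAGATGGCG in 8 (11.6%, against 2.14%), the estrogen-related receptor letters TCAAGGTCA in 2 (2.90%, against 0.377%) and the E-box CACGTG, which Myc and Max bind, in 7 (10.1%, against 8.91%). Both strands were searched, and none of the 5 motifs contains another. The 250 bases before the start are shown for 4 genes, 1 each of complexes I, II, IV and V. They were picked because together the stretches hold the NRF1 letters alone, NRF1 with ETS, and YY1 with ETS. In the whole search Sdhd also held the estrogen-related receptor letters and Atp5j the NRF1 letters, but not within the stretches shown. The genes were picked after the motifs had been found. Capitals mark the motif letters on either strand:
Ndufa11 (chr17:56717512-56717761, plus strand, NRF1): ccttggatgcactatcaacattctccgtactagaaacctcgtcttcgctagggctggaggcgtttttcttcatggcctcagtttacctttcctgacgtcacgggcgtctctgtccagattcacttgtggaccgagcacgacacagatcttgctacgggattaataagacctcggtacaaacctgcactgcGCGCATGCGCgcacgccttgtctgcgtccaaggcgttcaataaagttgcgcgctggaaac
Sdhd (chr9:50603850-50604099, minus strand, NRF1 and ETS): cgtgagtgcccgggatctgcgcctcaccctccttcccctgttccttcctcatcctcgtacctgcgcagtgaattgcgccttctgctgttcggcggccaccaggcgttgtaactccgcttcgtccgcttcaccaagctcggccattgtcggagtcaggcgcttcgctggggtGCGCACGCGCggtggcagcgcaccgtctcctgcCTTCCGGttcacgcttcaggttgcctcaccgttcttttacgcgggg
Cox6a1 (chr5:115348959-115349208, minus strand, NRF1 in 2 stretches and ETS): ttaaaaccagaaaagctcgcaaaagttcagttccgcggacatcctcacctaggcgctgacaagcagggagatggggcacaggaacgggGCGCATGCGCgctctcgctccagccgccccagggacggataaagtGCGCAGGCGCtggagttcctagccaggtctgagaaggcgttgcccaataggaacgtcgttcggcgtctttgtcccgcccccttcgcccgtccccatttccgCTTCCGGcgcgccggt
Atp5j (chr16:84834977-84835226, minus strand, 1 of 2 promoters listed, YY1 and ETS): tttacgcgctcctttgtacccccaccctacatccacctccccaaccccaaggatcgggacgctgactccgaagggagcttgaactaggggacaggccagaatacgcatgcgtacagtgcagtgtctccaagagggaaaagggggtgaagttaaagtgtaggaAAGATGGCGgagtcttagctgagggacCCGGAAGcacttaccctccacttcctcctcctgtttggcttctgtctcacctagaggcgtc
Ndufa11 is an accessory subunit of complex I, Sdhd a membrane anchor of complex II, Cox6a1 a subunit of complex IV and Atp5j a subunit of the stalk of the ATP synthase. All 4 genes were lower in CR tumors, as described with their complexes. A match of letters is a description of the sequence and no evidence of binding.

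Total counts ran from 20905806 to 91886163 per tumor. Among markers of prostate epithelium, Foxa1 was present, but Cdh1, Epcam, Krt18 and Pbsn were each below 1 CPM in every tumor. CPM is a gene's count divided by the effective size of its library (total count times a trimmed-mean, or TMM, factor) and scaled to 1000000. Krt8 and Krt19, both keratins of luminal epithelium, were higher in CR tumors (log2 fold changes 1.85 and 3.66, edgeR adjusted p = 0.0442 and 0.0189). The 3 CR libraries other than primary CR1 stood apart: the gene Lars2 took 8.53 to 9.54% of their counts, against 0.140% in primary CR1 and 0.0259 to 0.0998% in the AS tumors. Nuclear ribosomal RNA took 0.571 to 0.753% of the counts in these 3 libraries, against 0.0399% in primary CR1 and 0.0262 to 0.0789% in the AS tumors. Primary CR1 stood apart as well, with 2.53% of its counts from mitochondrial ribosomal RNA against 10.4 to 23.8% in the other 7 tumors, and 10.7% from small RNA against 5.83 to 8.72%. The AS and CR libraries also carry identifiers from separate number blocks, so that a difference between library sets and one between phenotypes cannot be told apart.

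The 83 genes together took 1.001 to 1.10% of all counts in the 4 AS tumors, 0.886% in primary CR1 and 0.476 to 0.549% in the other 3 CR tumors. As a share of the counts of protein-coding genes the values were 1.76 to 1.88% in AS tumors, 1.47% in primary CR1 and 0.821 to 0.907% in the other 3 CR tumors. In each of these measures all 4 CR tumors lay below all 4 AS tumors, and primary CR1 lay between the AS tumors and the other 3 CR tumors. Of the 83 genes, 78 were abundant enough to be tested. The other 5, Cox6a2, Cox6b2, Cox7b2, Cox8b and Cox8c, had at most 11 counts in any tumor.

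Levels of different genes were set beside each other per kilobase of transcript, as mean ± SD over the 8 tumors. Complex IV genes had the highest median among tested genes (213 CPM per kb) and complex I genes the lowest (49.5 CPM per kb), with 124.6 for complex V, 112 for complex III and 61.1 for complex II. Ndufa4 (501 ± 162 CPM per kb), Atp5b, the catalytic beta subunit of the ATP synthase (482 ± 164), and Cox6c (477 ± 87.5) were at the top over all 8 tumors, but the order differed between the phenotypes. In AS tumors Ndufa4 (625 ± 76.7) and Atp5b (614 ± 38.6) came first, followed by Uqcrh (493 ± 55.7), Cox7a2l (475 ± 17.95) and Cox6c (453.5 ± 64.8 CPM per kb, n = 4). In CR tumors Cox6c came first (500.4 ± 110.6), before Ndufa4 (378 ± 123) and Atp5b (349.8 ± 120.1 CPM per kb, n = 4), and the mean ± SD ranges of these 3 overlapped. The levels that follow are again over all 8 tumors. The hinge subunit gene Uqcrh (382 ± 134) and Uqcr10 (247 ± 117) led complex III, where Uqcrq (45.9 ± 8.96) and the Rieske protein gene Uqcrfs1 (44.3 ± 13.8) were lowest. In complex V the gamma subunit gene Atp5c1 (275 ± 66.4) came after Atp5b, and the factors Atp5s (5.27 ± 1.05) and Atp5sl (4.54 ± 0.563) were lowest. In complex I Ndufa6 (258 ± 53.3) and Ndufa1 (206 ± 76.4) were highest, and Ndufc1 (18.03 ± 8.27) and Ndufs5 (3.64 ± 1.32) were lowest. In complex II, Sdhb was at 73.9 ± 20.2, Sdhd at 68.8 ± 33.4, Sdha at 53.3 ± 10.1 and Sdhc at 10.4 ± 4.57 CPM per kb. Some levels are uncertain, because reads of near-identical copies cannot be assigned. Of the 83 genes, 12 shared over 25% of their read-length stretches with the transcripts of a gene elsewhere, among them Atp5g2 and Atp5l2 (each 100%), Atp5l (66.7%), Ndufs3 (61.5%), Uqcrb (55.4%), Ndufs5 (52.9%) and Cox5b (39.3%), and 49 shared none.

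The first comparison asked how castrate resistant tumors differ from androgen sensitive tumors. In each of the 5 complexes some genes were lower in CR tumors and none were higher. With edgeR's quasi-likelihood test and Benjamini-Hochberg adjustment over 17104 genes, 40 of 78 tested genes were lower in CR tumors and 0 were higher, at an adjusted p under 0.05. Of all genes tested, 6.01% were lower and 6.16% higher. At an unadjusted p under 0.05, 59 were lower and 0 higher, where 14.6% of all genes were lower and 28.8% differed in either direction. DESeq2 called 48 lower and 0 higher, where it called 9.68% of all genes lower and 20.7% in either direction. The log2 fold change was below 0 for 75 of the 78 genes (96.2%, against 50.8% of all genes), with a median of -0.68 against -0.01 over all genes. The 40 called genes stood at 0.307 to 0.695 times their level in AS tumors by the fitted fold change. In 37 of the 78 genes (47.4%) all 4 CR tumors lay below all 4 AS tumors, which was so for 9.82% of all genes, and in 0 of the 78 did they lie above, which was so for 9.09%. In bulk tumor RNA, less RNA per cell and fewer cells that express a gene cannot be told apart.

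The sum over the 78 tested genes was 10720 and 10030 CPM in the primary AS tumors, 9808 and 9458 CPM in the metastatic AS tumors, 8251 and 6024 CPM in the primary CR tumors and 5650 and 4803 CPM in the metastatic CR tumors. The groups did not overlap, and the CR mean was 0.618 times the AS mean (6182 ± 1470 against 10000 ± 532 CPM). The ratio was lowest for complex V and highest for complex I. The sum for complex V was 3675 ± 239 CPM in AS and 2116 ± 606 CPM in CR tumors, a ratio of 0.576. The ratio was 0.594 for complex II (447 ± 29.7 against 266 ± 43.0 CPM), 0.617 for complex IV (2330 ± 137 against 1438 ± 368 CPM), 0.625 for complex III (1049 ± 86.8 against 655 ± 138 CPM) and 0.683 for complex I (2501 ± 112 against 1707 ± 382 CPM). The differences between complexes were not tested. In all 5 complexes primary CR1 was the highest of the CR tumors.

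**Figure D1:**
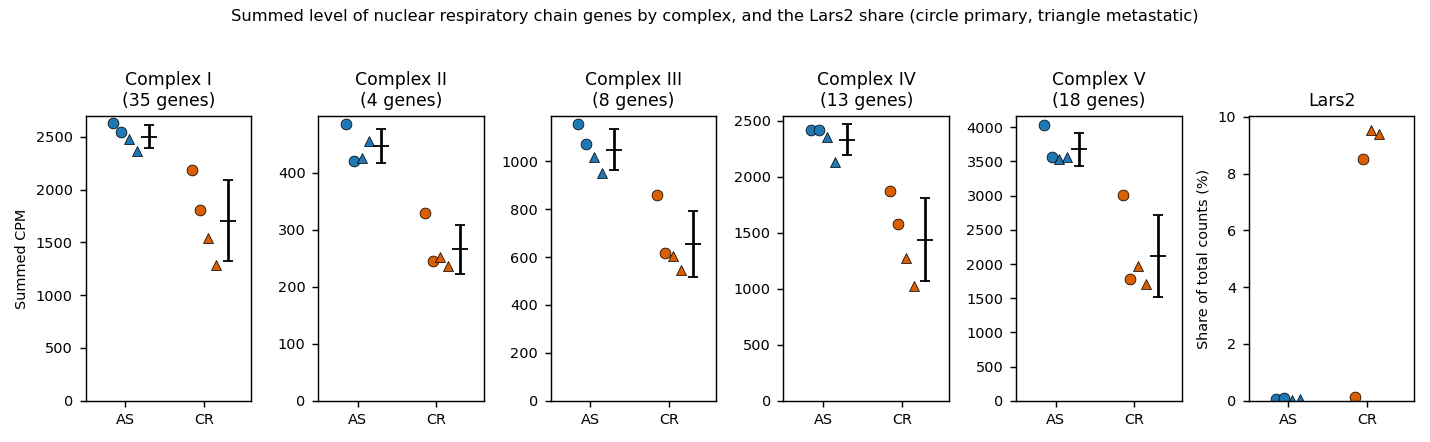
Summed CPM of the tested genes of each complex by tumor, for AS and CR tumors, with circles for primary and triangles for metastatic tumors, bars for the mean ± SD (n = 4), and at the right the share of all counts taken by Lars2 in percent. In each complex all 4 CR tumors lie below all 4 AS tumors, and the CR tumor with the highest sums, primary CR1, is the one whose Lars2 share (0.140%) is low.

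The 4 CR tumors did not contribute alike. Metastatic CR2 lay below every AS tumor in 73 of the 78 genes (93.6%), metastatic CR1 in 69 (88.5%), primary CR2 in 64 (82.1%) and primary CR1 in 46 (59.0%). Over all genes tested the shares were 37.7%, 37.7%, 35.8% and 31.4%. Primary CR1 lay within the range of the AS tumors in 27 genes and above it in 5 (Ndufa7, Ndufs4, Ndufs7, Atp5g2 and Atp5s, named after their values were seen). When the 3 CR libraries with high Lars2 were left out, primary CR1 alone stood against the 4 AS tumors. The median log2 fold change was then -0.31, with 66 of 79 tested genes below 0. A lone CR tumor has no spread of its own, so no count of called genes is given for this fit. When primary CR1 was left out instead, 57 genes were called, 56 lower and 1, Ndufs5, higher. Of all genes 23.8% were then called in either direction, against 12.2% with all 8 tumors. Leaving out any other tumor gave 10 to 19 called genes, all lower, and the share of all genes called in either direction fell as well. With that share in brackets, the counts were 10 without metastatic AS1 (2.76%), 12 without metastatic AS2 (3.01%) and 13 without metastatic CR1 (4.21%). They were 16 without primary AS2 (4%), 17 without primary CR2 (5.94%), 18 without metastatic CR2 (6.4%) and 19 without primary AS1 (4.96%). The 40 called genes stayed below 0 in each of these fits, but only 9 of them were called in all 8, and 18 were called when primary CR1 was left out and in none of the other 7 fits. The part of Lars2 and ribosomal RNA reads in the lower values was not tested.

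**Figure D2:**
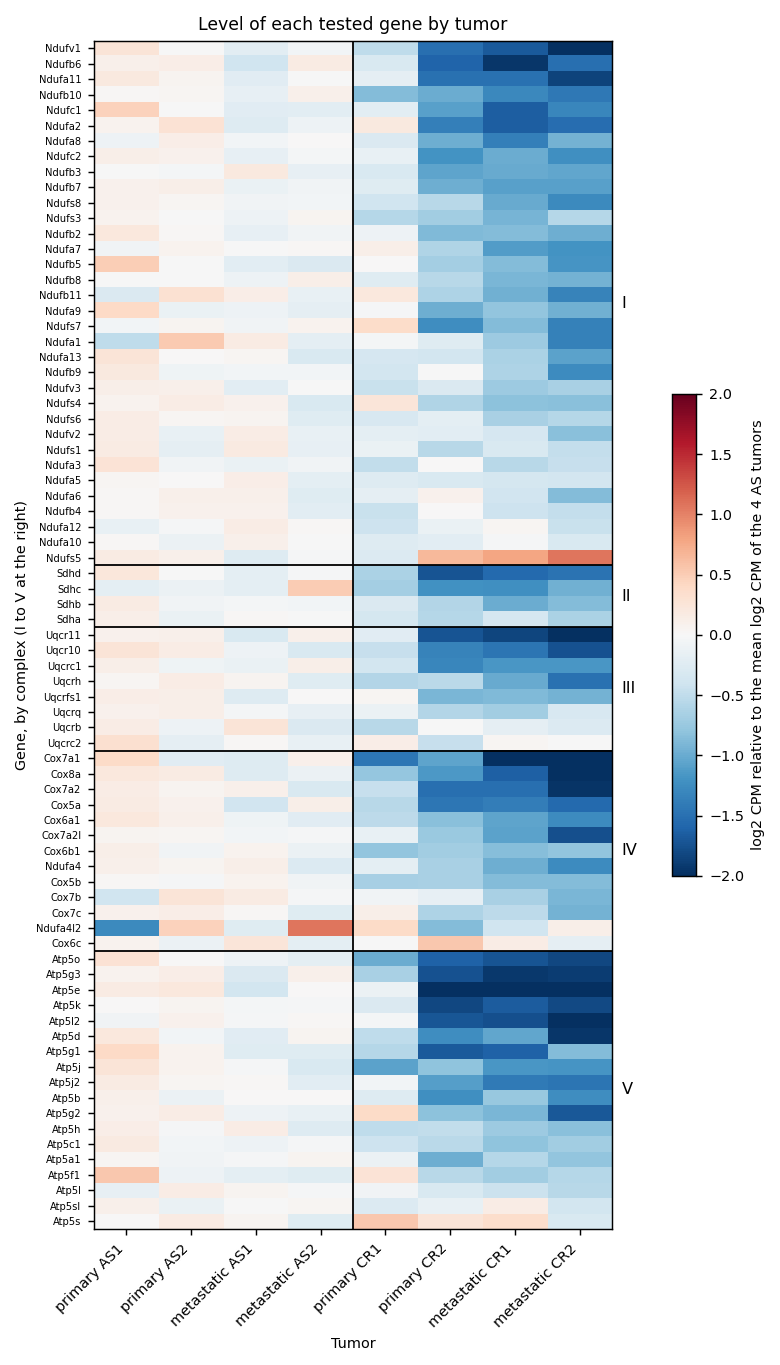
Level of the tested genes (rows, by complex, 1 of complex I left out) in each of the 8 tumors (columns), as log2 CPM relative to the mean log2 CPM of the 4 AS tumors, with blue below and red above and the color limits at 2 in each direction. Most rows are blue in primary CR2 and both metastatic CR tumors and paler in primary CR1, and Ndufs5 is the row that is red in those 3 tumors.

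In complex I, 15 of 35 genes were lower in CR tumors, 3 of the 7 core subunits (Ndufv1, Ndufs3 and Ndufs8) and 12 of the 28 accessory subunits, with a median log2 fold change of -0.66. Of the 15, Ndufv1 and Ndufb10 were called whichever tumor was left out, and 9, Ndufa11 among them, only when primary CR1 was. Ndufv1, the core subunit that binds NADH and the flavin, stood at 106 and 87.5 CPM in the primary AS tumors, 76.5 and 85.02 in the metastatic AS tumors, 61.9 and 31.1 in the primary CR tumors and 27.5 and 22.2 in the metastatic CR tumors. All 4 CR tumors were below all 4 AS tumors, and the fold change was the largest of the complex (log2 fold change -1.38, SE 0.25, adjusted p = 0.0134, edgeR). Ndufb10, an accessory subunit of the membrane arm chosen after its values were seen, stood at 48.7 and 49.4 CPM in the primary AS tumors, 42.5 and 51.5 in the metastatic AS tumors, 26.3 and 24.2 in the primary CR tumors and 19.6 and 17.8 in the metastatic CR tumors. Its CR tumors were close together, primary CR1 included, and all lay below the AS tumors (log2 fold change -1.15, SE 0.14, adjusted p = 0.00439). Ndufa11, whose promoter is shown above, fell from 49.3 ± 5.88 CPM to 22.9 ± 13.6 CPM (log2 fold change -1.18, SE 0.29, adjusted p = 0.0332), and its primary CR1 value lay within the AS range. Ndufs1, an iron-sulfur subunit of the electron-input arm, stood at 120 ± 16.1 CPM in AS and 92.7 ± 12.2 CPM in CR tumors (log2 fold change -0.37, SE 0.17, adjusted p = 0.175), which did not pass the test. The gene that went the other way was Ndufs5, an accessory subunit, at 1.68 and 1.61 CPM in the primary AS tumors, 1.25 and 1.47 in the metastatic AS tumors, 1.24 and 2.33 in the primary CR tumors and 2.57 and 3.14 in the metastatic CR tumors. The 3 CR tumors with high Lars2 lay above all AS tumors and primary CR1 below them, and the difference did not pass the test (log2 fold change 0.58, SE 0.32, adjusted p = 0.266). The level of Ndufs5 was the lowest of the complex, and 52.9% of its sequence stretches recur elsewhere.

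In complex II, 3 of the 4 genes were lower, with a median log2 fold change of -0.85, and of these Sdhd was called whichever tumor was left out, Sdhc in 2 of the 8 fits and Sdhb in 1. Sdhd, a membrane anchor whose promoter is shown above, stood at 139.7 and 119 CPM in the primary AS tumors, 105 and 117 in the metastatic AS tumors, 77.5 and 36.02 in the primary CR tumors and 40.5 and 42.8 in the metastatic CR tumors. The groups did not overlap, and primary CR1 was well above the other CR tumors (log2 fold change -1.30, SE 0.23, adjusted p = 0.0129, edgeR). The other anchor, Sdhc, was at 44.2 ± 11.6 CPM in AS and 21.6 ± 3.96 CPM in CR tumors (log2 fold change -1.02, SE 0.21, adjusted p = 0.0217), and the iron-sulfur subunit Sdhb at 103 ± 7.95 CPM in AS and 65.4 ± 14.7 CPM in CR tumors (log2 fold change -0.68, SE 0.15, adjusted p = 0.0273). The flavoprotein Sdha, which holds the succinate site, stood at 194 and 164 CPM in the primary AS tumors, 183 and 177 in the metastatic AS tumors, 140.4 and 121 in the primary CR tumors and 142 and 115 in the metastatic CR tumors. All 4 CR tumors were again below all AS tumors, but the difference did not pass the test over all genes (log2 fold change -0.47, SE 0.15, adjusted p = 0.0678).

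In complex III, 4 of 8 genes were lower, with a median log2 fold change of -0.77. None of the 4 was called in all 8 fits that left out a tumor: Uqcr10 was in 7, Uqcrh in 4, and Uqcr11 and Uqcrc1 in 1. Uqcr11, a small accessory subunit, stood at 109 and 109.6 CPM in the primary AS tumors, 82.4 and 110 in the metastatic AS tumors, 87.1 and 30.97 in the primary CR tumors and 28.6 and 17.3 in the metastatic CR tumors. Primary CR1 lay above the lowest AS tumor, metastatic AS1, and the other 3 CR tumors were far below (log2 fold change -1.47, SE 0.38, adjusted p = 0.0383, edgeR). Uqcr10 (log2 fold change -1.21, SE 0.21, adjusted p = 0.0122), the core protein gene Uqcrc1 (log2 fold change -0.97, SE 0.22, adjusted p = 0.026) and Uqcrh (log2 fold change -0.90, SE 0.18, adjusted p = 0.0198) were lower without overlap of the groups. The Rieske iron-sulfur protein gene Uqcrfs1, the 1 catalytic subunit of this list, was at 79.7 and 78.5 CPM in the primary AS tumors, 60.9 and 72.9 in the metastatic AS tumors, 74.9 and 38.6 in the primary CR tumors and 39.5 and 37.7 in the metastatic CR tumors. Its primary CR1 value lay in the AS range and the difference did not pass the test (log2 fold change -0.64, SE 0.21, adjusted p = 0.083). Uqcrb was at 79.3 ± 13.4 CPM in AS and 66.4 ± 10.1 CPM in CR tumors (log2 fold change -0.26, SE 0.18, adjusted p = 0.38). The second core protein gene, Uqcrc2, named after its values were seen, was at 169 ± 28.03 CPM in AS and 161 ± 27.6 CPM in CR tumors, a difference within the spread of either group (log2 fold change -0.07, SE 0.19, adjusted p = 0.843).

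In complex IV, 8 of 13 tested genes were lower, with a median log2 fold change of -0.78. Of the 10 ubiquitous subunits, 7 were lower. Cox6a1, Cox7a1 and Cox8a were called whichever tumor was left out, Cox5a, Cox5b and Cox6b1 in 7 of the 8 fits, Cox7a2 in 4 and Ndufa4 in 1. Cox8a, a small subunit, stood at 193 and 186 CPM in the primary AS tumors, 139 and 154 in the metastatic AS tumors, 97.99 and 75.4 in the primary CR tumors and 53.8 and 37.97 in the metastatic CR tumors. The groups did not overlap (log2 fold change -1.40, SE 0.19, adjusted p = 0.00588, edgeR). Cox7a2 (log2 fold change -1.31, SE 0.26, adjusted p = 0.0193), Cox5a (log2 fold change -1.21, SE 0.22, adjusted p = 0.0139), Cox6a1 (log2 fold change -0.91, SE 0.15, adjusted p = 0.01), Cox6b1 (log2 fold change -0.78, SE 0.14, adjusted p = 0.0118), Cox5b (log2 fold change -0.76, SE 0.13, adjusted p = 0.0113) and Ndufa4 (log2 fold change -0.77, SE 0.20, adjusted p = 0.0395) were lower as well. Cox5b and Cox6b1 were lower to a like extent in every CR tumor: Cox6b1 stood at 203 and 178 CPM in the primary AS tumors, 195 and 173 in the metastatic AS tumors, 108 and 116 in the primary CR tumors and 104 and 108 in the metastatic CR tumors. Cox6c did not follow them. It stood at 239 and 208 CPM in the primary AS tumors, 269 and 197 in the metastatic AS tumors, 226 and 329 in the primary CR tumors and 252 and 200 in the metastatic CR tumors, the groups overlapped, and the difference was above 0 and did not pass the test (log2 fold change 0.13, SE 0.20, adjusted p = 0.693). Cox7b, at 289.7 ± 55.6 CPM in AS and 215 ± 57.4 CPM in CR tumors, did not pass the test either (log2 fold change -0.47, SE 0.22, adjusted p = 0.205). The supercomplex factor Cox7a2l lay lower in all 4 CR tumors than in any AS tumor, at 511 ± 19.3 CPM in AS and 289.5 ± 130.3 CPM in CR tumors, with an adjusted p just above the threshold (log2 fold change -0.90, SE 0.26, adjusted p = 0.0528).

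In complex V, 10 of 18 genes were lower, with a median log2 fold change of -0.89: 3 of the 5 F1 genes (Atp5c1, Atp5d and Atp5e), 7 of the 10 genes of Fo and the stalk, and 0 of the 2 factors. Atp5g3, Atp5j and Atp5o were called whichever tumor was left out, and 5 of the 10, Atp5e and Atp5c1 among them, only when primary CR1 was. Atp5o, which encodes the stalk subunit OSCP that holds the F1 head, had the smallest adjusted p of all the respiratory chain genes and stood at 180.2 and 148 CPM in the primary AS tumors, 137 and 129 in the metastatic AS tumors, 74.1 and 47.8 in the primary CR tumors and 44.5 and 41.5 in the metastatic CR tumors. All CR tumors were below all AS tumors, primary CR1 included (log2 fold change -1.53, SE 0.18, adjusted p = 0.00357, edgeR). Atp5e, the epsilon subunit of F1, stood at 61.1 and 63.2 CPM in the primary AS tumors, 42.4 and 55.04 in the metastatic AS tumors, 50.5 and 12.4 in the primary CR tumors and 10.9 and 13.1 in the metastatic CR tumors. The 3 CR tumors with high Lars2 were far below the AS tumors, and primary CR1 lay inside the AS range (log2 fold change -1.495, SE 0.41, adjusted p = 0.0463). Atp5j, whose promoter is shown above, was at 142 ± 22.2 CPM in AS and 68.1 ± 8.68 CPM in CR tumors (log2 fold change -1.05, SE 0.14, adjusted p = 0.00588). The large F1 subunits followed with smaller differences. Atp5b was at 1177 ± 73.99 CPM in AS and 670.3 ± 230.2 CPM in CR tumors (log2 fold change -0.82, SE 0.24, adjusted p = 0.0606) and Atp5a1 at 679.5 ± 25.6 CPM in AS and 456 ± 124 CPM in CR tumors (log2 fold change -0.58, SE 0.21, adjusted p = 0.106), both with no overlap of the groups and neither past the threshold, and Atp5c1 at 387 ± 35.2 CPM in AS and 254 ± 29.9 CPM in CR tumors was called lower (log2 fold change -0.61, SE 0.14, adjusted p = 0.031). The factor Atp5s had a fitted value above 0 that did not pass the test (log2 fold change 0.23, SE 0.20, adjusted p = 0.481), and its groups overlapped.

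**Figure D3:**
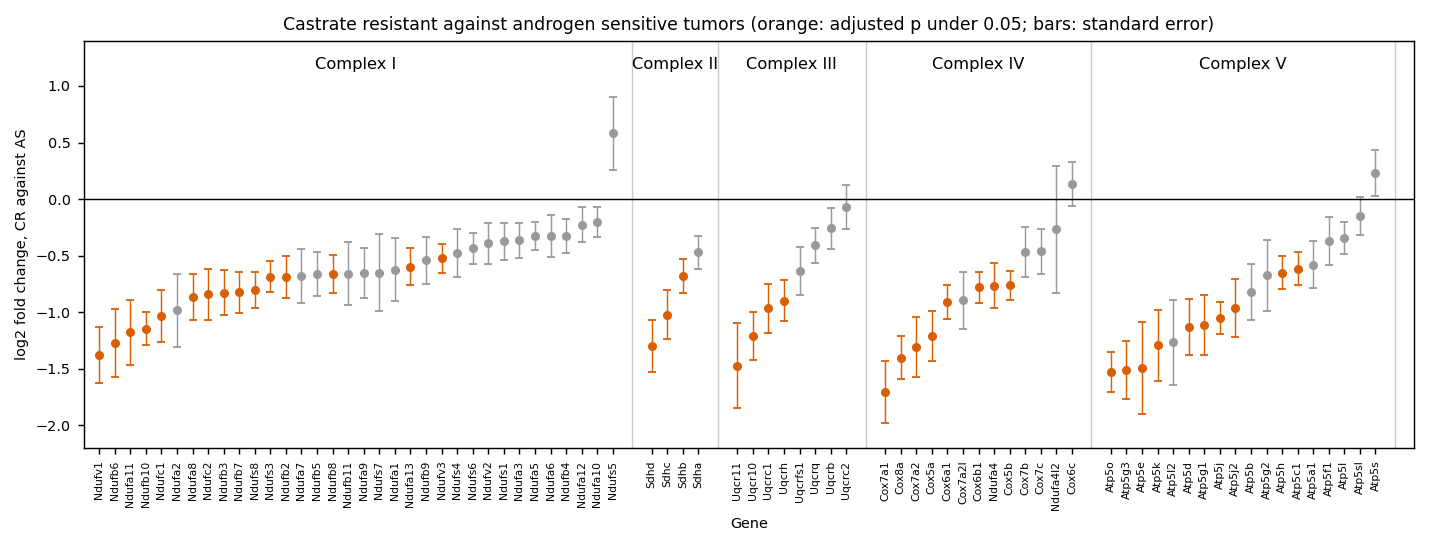
Fitted log2 fold change of CR against AS tumors for the tested genes, 1 of complex I left out, ordered within each complex, with bars for the standard error and orange for an adjusted p under 0.05. All 40 orange points lie below 0, and the 3 points above 0 (Ndufs5, Cox6c and Atp5s) are gray.

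Several subunits of complexes IV and V have isoforms that differ by tissue. The heart and skeletal muscle isoforms Cox6a2 and Cox8b and the testis isoforms Cox6b2, Cox7b2 and Cox8c had at most 11 counts in any tumor, and Ndufa4l2, a paralog known to be induced by hypoxia, had 0.3197 ± 0.197 CPM in AS and 0.249 ± 0.0903 CPM in CR tumors. In these families nearly all counts came from the ubiquitous isoform. The muscle isoform Cox7a1 had the largest fold change of all the respiratory chain genes. It stood at 5.79 and 3.79 CPM in the primary AS tumors, 3.72 and 4.77 in the metastatic AS tumors, 1.64 and 2.13 in the primary CR tumors and 1.05 and 0.963 in the metastatic CR tumors, with no overlap (log2 fold change -1.71, SE 0.28, adjusted p = 0.00978, edgeR). Its ubiquitous partner Cox7a2 was lower too, and Cox7a1 made up 2.86 ± 0.72% of the Cox7a counts in AS and 2.36 ± 1.01% in CR tumors (exact permutation test, two-sided p = 0.486, adjusted p = 1). Skeletal muscle markers summed to 9.52 to 24.3 CPM in AS and 5.55 to 19.97 CPM in CR tumors, of 5 tested 1 (Tnnt3) was lower, and Ckm, Myh1, Myh2 and Myh4 were below 1 CPM in every tumor. The part of muscle cells in the Cox7a1 difference was not tested. Atp5g1, Atp5g2 and Atp5g3 all encode the same mature c subunit of the ATP synthase rotor. Atp5g3 stood at 176 and 183 CPM in the primary AS tumors, 138 and 179 in the metastatic AS tumors, 107 and 50.4 in the primary CR tumors and 44.2 and 45.1 in the metastatic CR tumors (log2 fold change -1.51, SE 0.26, adjusted p = 0.0114), Atp5g1 at 159 ± 34.6 CPM in AS and 72.7 ± 27.7 CPM in CR tumors (log2 fold change -1.11, SE 0.27, adjusted p = 0.032) and Atp5g2 at 68.9 ± 6.86 CPM in AS and 46.4 ± 29.6 CPM in CR tumors (log2 fold change -0.68, SE 0.31, adjusted p = 0.189). Atp5g3 made up 42.7 ± 3.95% of the Atp5g counts in AS and 33.8 ± 2.97% in CR tumors, with no overlap of the groups. The exact permutation p of 0.0286 is the smallest that 4 against 4 tumors allow if they are taken as independent. After adjustment over the 16 isoform shares tested p was 0.458. All sequence stretches of Atp5g2 recur elsewhere, so its share is uncertain.

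**Figure D4:**
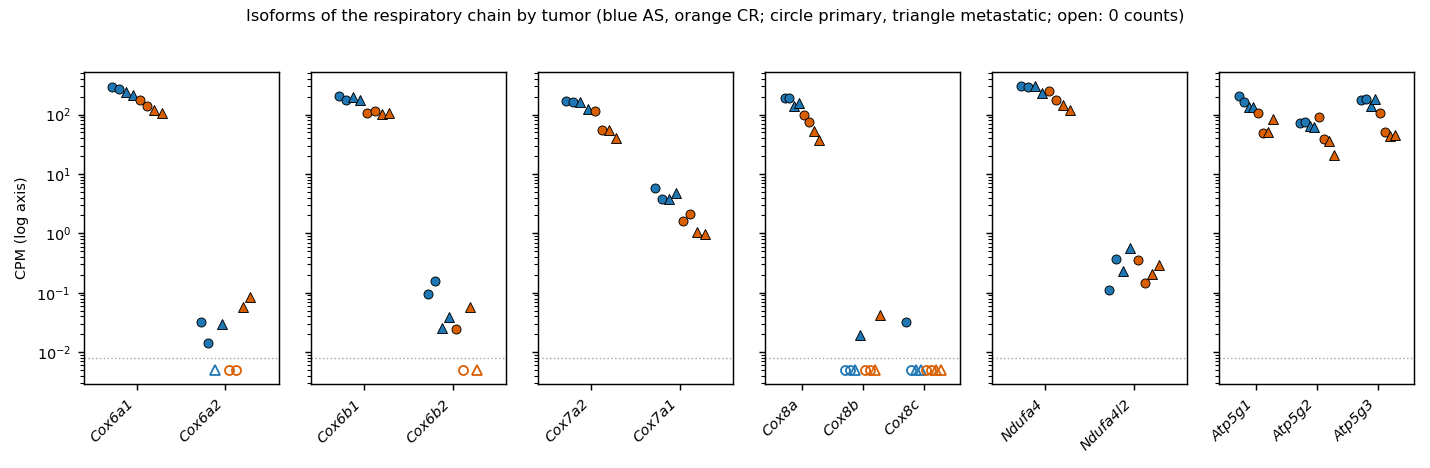
CPM on a log axis of the isoforms of 6 subunits in each tumor, blue for AS, orange for CR, circles for primary and triangles for metastatic tumors, with open marks under the dotted line for 0 counts. Cox6a2, Cox6b2, Cox8b, Cox8c and Ndufa4l2 lie below 1 CPM in every tumor, and Cox7a1 lies between 0.963 and 5.79 CPM where Cox7a2 lies between 39.9 and 172 CPM.

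Genes that work with these subunits were compared from lists. Over all genes tested, 6.01% were lower and 6.16% higher in CR tumors, and the counts of each list stand beside these shares. Of 46 assembly factors listed, 33 were found by symbol. Of these 33, 8 were lower and 1 was higher in CR tumors, with a median log2 fold change of -0.37. Ndufaf5, a complex I assembly factor, stood at 9.12 and 8.51 CPM in the primary AS tumors, 8.27 and 10.3 in the metastatic AS tumors, 3.49 and 1.04 in the primary CR tumors and 1.901 and 2.01 in the metastatic CR tumors (log2 fold change -2.08, SE 0.34, adjusted p = 0.00978, edgeR). All CR tumors were below all AS tumors. Ndufaf3, another complex I assembly factor (log2 fold change -1.47, SE 0.23, adjusted p = 0.00862), and Cox17, the copper chaperone of complex IV (log2 fold change -1.004, SE 0.12, adjusted p = 0.00432), were lower too, and Ndufaf2, a complex I assembly factor named after its value was seen, was the 1 that was higher (log2 fold change 0.85, SE 0.19, adjusted p = 0.0274). Of 6 tested subunits and carriers with other symbols, 2 were lower, Cyc1, the cytochrome c1 of complex III (log2 fold change -1.16, SE 0.29, adjusted p = 0.0347), and Cox4i1 of complex IV (log2 fold change -0.88, SE 0.21, adjusted p = 0.0301), with a median of -0.51. Of 14 citric acid cycle genes, 4 were lower, among them Idh3a, Ogdh and Mdh2 (log2 fold changes -1.02, -0.90 and -0.69), with a median of -0.28. The 13 messenger RNAs of mitochondrial DNA had a median of 0.46, with 0 called in either direction. Their sum was 41690 and 29030 CPM in the primary AS, 35800 and 25560 in the metastatic AS, 21570 and 55510 in the primary CR and 42100 and 22230 CPM in the metastatic CR tumors, and the groups overlapped.

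Of 15 regulators of mitochondrial biogenesis tested, 1 was lower and 1 was higher, with a median of -0.08, a share near that of all genes (6.01% lower and 6.16% higher). Esrra, the estrogen-related receptor alpha, which activates respiratory chain genes, stood at 26.9 and 24.1 CPM in the primary AS tumors, 18.3 and 24.2 in the metastatic AS tumors, 13.6 and 5.40 in the primary CR tumors and 5.85 and 3.01 in the metastatic CR tumors. All CR tumors were below all AS tumors (log2 fold change -1.83, SE 0.35, adjusted p = 0.0161, edgeR). Gabpa, the DNA-binding subunit of the ETS factor GABP, stood at 34.7 and 38.4 CPM in the primary AS tumors, 42.3 and 40.5 in the metastatic AS tumors, 43.9 and 60.8 in the primary CR tumors and 61.03 and 63.2 in the metastatic CR tumors, higher in every CR tumor than in any AS tumor (log2 fold change 0.55, SE 0.14, adjusted p = 0.0403). The coactivator Ppargc1a, named after its value was seen, was at 65.9 ± 28.8 CPM in AS and 22.9 ± 13.4 CPM in CR tumors and just missed the threshold (log2 fold change -1.51, SE 0.44, adjusted p = 0.0574).

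The promoter letters were also counted in called and uncalled genes. Of the tested genes with a promoter in the table, the ETS letters stood in 15 of 39 called genes (38.5%) and in 1 of 27 others (3.70%), the uncalled one being Atp5l. The called 15 included Sdhd, Cox6a1, Cox8a, Uqcr11, Atp5e and Atp5j. The median log2 fold change was -0.90 for the 16 genes with the letters and -0.66 for the 50 without. The NRF1 letters stood in 15 of 39 called genes (38.5%) and 13 of 27 others (48.1%), the YY1 letters in 3 (7.69%) and 5 (18.5%), and the estrogen-related receptor letters in 2 (5.13%), Sdhd and Atp5g3, and 0. The E-box stood in 3 (7.69%) and 4 (14.8%). These counts are a description and were given no test. The letters were not counted in called and uncalled genes outside the respiratory chain, so no such share stands beside them.

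Because the phenotypes were compared over both tumor types, the difference was also read within each. Among the primary tumors alone 0 respiratory chain genes were called, where 0.132% of 18889 genes were called lower and 0.164% higher. At an unadjusted p under 0.05, 26 were lower by edgeR, against 6.82% of all genes, DESeq2 called 10, where it called 4.46% of all genes, and the median log2 fold change was -0.55. Among the metastatic tumors 1 gene was called, Ndufb10 (log2 fold change -1.37, SE 0.21, adjusted p = 0.0471), where 0.228% of all genes were called lower. There, 57 were lower and 1, Ndufs5, was higher at an unadjusted p under 0.05, against 11.5% and 8.44% of all genes, DESeq2 called 37, where it called 8.74% of all genes, and the median was -0.99. Both comparisons set 2 tumors against 2.

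The second comparison asked what differs between metastatic and primary tumors. No respiratory chain gene passed the test, in either direction. By edgeR's quasi-likelihood test 0 of 78 genes were called, and 0 had an unadjusted p under 0.05, where 1.12% of all genes were lower and 1.56% higher. No gene at all was called among 17104 (459 at an unadjusted p under 0.05), and DESeq2 called 0. The background share of calls was 0% in each direction. The log2 fold change was below 0 in 71 of the 78 genes (91.0%, against 53.8% of all genes), with a median of -0.31 against -0.03 over all genes. In 0 genes did the groups separate, which 0.848% of all genes did downward and 0.854% upward. With phenotype as a covariate, 0 genes were again called, 12 of the 78 had an unadjusted p under 0.05, where 6.70% of all genes did, and the median was -0.35. The summed level was 8756 ± 2100 CPM in primary and 7430 ± 2570 CPM in metastatic tumors, where each SD also holds the difference between the phenotypes. Within each phenotype both metastatic sums lay below both primary sums. The 3 genes with the smallest p in the downward direction were Atp5f1, a stalk subunit (log2 fold change -0.51, SE 0.25, unadjusted p = 0.0709), Ndufb5 (log2 fold change -0.60, SE 0.30, unadjusted p = 0.0733) and Atp5g2 (log2 fold change -0.59, SE 0.38, unadjusted p = 0.146). In the upward direction they were Ndufs5 (log2 fold change 0.30, SE 0.37, unadjusted p = 0.444), Ndufa12 (log2 fold change 0.13, SE 0.18, unadjusted p = 0.481) and Ndufa4l2 (log2 fold change 0.38, SE 0.55, unadjusted p = 0.501). All 6 had an adjusted p of 0.997. In complex II the 4 genes had log2 fold changes of -0.29 to 0.19.

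Within the AS tumors 0 genes were called by edgeR or DESeq2 and 0 had an unadjusted p under 0.05, where 0.895% of all genes were lower and 1.55% higher, with a median log2 fold change of -0.15. Within the CR tumors 0 were called, by DESeq2 too, but 26 were lower in the metastatic tumors at an unadjusted p under 0.05, where 5.37% of all genes were, and the median was -0.53. When primary CR2 was left out, so that primary CR1 alone stood for the primary CR tumors, 8 were called lower, where 1.11% of all genes were called in either direction. Atp5e, Uqcr11 and Atp5l2 had the lowest values, with log2 fold changes of -1.44, -1.40 and -1.28. The 2 primary CR libraries differed in Lars2 share (0.140% and 8.53%), and the part of this in the comparison was not tested. The difference between the phenotypes in this effect was tested by an interaction term, which called 0 genes (DESeq2 0). The interaction had an unadjusted p under 0.05 for 2 genes, where 1.54% of all genes were lower, 1 of them Ndufa7 (log2 difference -0.997, SE 0.38), and its median was -0.38.

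The levels of the respiratory chain genes went together across the tumors. The median Pearson correlation of a gene's log2 level with the other genes was 0.841 over genes, and it was over 0.8 for 49 and negative for 3, Ndufs5, Cox6c and Atp5s. This describes the 8 tumors only, which share their library sets, and was given no p. Transcript length and GC content bore a weak relation to the fold change over 13661 protein-coding genes (Spearman 0.114 with length and -0.255 with GC). The respiratory chain genes are short, with a median transcript of 849.5 bases against 2880. With both trends removed, a correction added after the data were seen, 36 genes were called lower instead of 40, with a median log2 fold change of -0.61. Of the genes with stretches shared elsewhere 17 of 33 were called, with a median of -0.68, and of those without 23 of 45, with a median of -0.69. The summed markers of other cells overlapped between the phenotypes: macrophage markers summed to 302 to 449.7 CPM in AS and 184 to 402 CPM in CR tumors, endothelial markers to 42.8 to 87.8 and 41.8 to 83.3, fibroblast markers to 52.5 to 88.4 and 52.5 to 106.5, and genes of dividing cells to 76.5 to 308.5 and 73.8 to 357 CPM. The summed markers of prostate epithelium did not overlap, at 1360 to 2454 CPM in AS and 2560 to 3559 CPM in CR tumors. Of 7 tested, 2 (Krt8 and Krt19) were higher and 0 lower, where 6.16% and 6.01% of all genes were. The part of any of these markers in the differences was not tested.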

How the data were processed

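RNA was rRNA-depleted and made into libraries with the TruSeq Stranded Total RNA kit and sequenced on a HiSeq2000. The deposited files hold raw read counts per Ensembl gene: the authors mapped reads to mouse GRCm38 (mm10) with Bowtie per the study's methods, keeping reads with a single location and up to 2 mismatches. The submitters' processing notes also list TopHat2 2.0 and CASAVA 1.8.2, with no role given. No normalization was applied to the counts as deposited. How the counting used strand is not given in the sources used here, so reads of overlapping and antisense genes may be shared.

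From the counts, genes with low counts were removed (filterByExpr of edgeR 4.0.16, R 4.3.3), TMM factors were computed and edgeR's quasi-likelihood test was fitted on all genes, with Benjamini-Hochberg adjustment and a threshold of 0.05. CR was compared with AS over 8 tumors with tumor type as a covariate, metastatic with primary over 8 tumors without one, and the contrasts within a phenotype or tumor type and the interaction in a fit of the 4 groups. Isoform shares were compared by an exact permutation test, two-sided. The scripts were tested on simulated counts. DESeq2 1.42.0, other scaling and filters, and leaving out each tumor were alternatives. The NRF1 and YY1 letters searched are shortened forms of longer motifs. Lengths come from GENCODE M21 (36343 of 38115 genes found) and recurring stretches from bwa 0.7.19. Transcript stretches recur if they match with up to 2 mismatches.

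The precision is set by 2 tumors in each of 4 groups and by total counts of 20905806 to 91886163. Genes were named by a rule: fixed core subunits and isoform pairs, up to 8 called genes with the largest change per direction (or the 3 of smallest p), the 2 highest and 2 lowest levels per length in each complex, and up to 3 called genes of each related list. Values of some genes that the rule or the lists hold are not reported here. The genes, lists and rules were chosen with earlier results of these data known.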

Additional observations from a re-analysis of the deposited data

Results flagged for a closer look

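In groups of 4 tumors (the AS, CR, primary or metastatic tumors), 192 sets of values were examined for 1 tumor whose distance to the nearest other took up nearly the whole range of the group. Of these, 15 were set apart. Chance alone gives about 1 in 20 for independent values, but these sets share the same 8 tumors and genes that vary together. The count of 15 can therefore not be set against that rate. In 8 of the 15 the tumor was primary CR1, above the other CR tumors. The summed complex II genes stood at 330 CPM in primary CR1 against 237 to 252 in the other CR tumors. Likewise Sdhd stood at 77.5 CPM against 36.0 to 42.8, Uqcrfs1 at 74.9 against 37.7 to 39.5, Uqcrc1 at 97.8 against 51.1 to 56.6, and Cox5a at 78.9 against 39.6 to 44.7. Of complex V, Atp5g3 stood at 107 CPM against 44.2 to 50.4, Atp5e at 50.5 against 10.9 to 13.1, and Atp5f1 at 122 against 62.6 to 69.1. Primary CR1 is also the CR library with the low Lars2 share and has the lowest share of mitochondrial ribosomal RNA (2.53%), and the part of these in these values was not tested.

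Uqcrfs1 gave the reverse view among the primary tumors, where primary CR2 stood at 38.6 CPM and the others at 74.9 to 79.7. In the AS tumors primary AS1 was high for the summed complex V genes (4030 CPM against 3540 to 3570), for Sdhb (115 against 98.6 to 100.7) and for Atp5f1 (147 against 85.2 to 94.7). Metastatic AS1 was low for Atp5g3 (138 CPM against 175 to 183) and Uqcr11 (82.4 against 109 to 110), and metastatic AS2 was high for Sdhc (61.6 CPM against 37.6 to 39.7).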

How the results depend on the processing

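In the comparison of CR with AS tumors the 40 called genes became 30 to 51 under other scaling (RLE 41, protein-coding genes alone 39), DESeq2 (48), no filter on low counts (51), a threshold of 0.1 (50), subunits only (40), no covariate (30) and a GC and length correction added after the data were seen (36), and leaving out 1 tumor gave 10 to 57 (57 without primary CR1, 1 of them higher). Over all genes, the 2081 called became 3544 by DESeq2, 3442 at a threshold of 0.1, 4133 without primary CR1 and 481 to 1116 without any other tumor. All 40 kept a log2 fold change below 0 in each of these, and the median stayed between -0.613 and -0.895. With the 3 CR tumors of high Lars2 left out, also added after the data were seen, the median was -0.313. The lone CR tumor was then assumed to vary like the AS tumors, so no count of called genes is given. In that setting Atp5g2 (0.265), Ndufa4l2 (0.537) and Ndufs5 (-0.402) changed sign. Cox6c ranged from -0.011 to 0.261 and Ndufa4l2 from -0.706 to 0.125 as 1 tumor was left out, and Ndufa4l2 was at 0.054 with the GC and length correction. The cause was not tested. Of the values of named genes over all alternatives of this comparison, 459 kept direction and side of the threshold, 100 lost and 19 gained the call, and 7 changed sign.

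For metastatic against primary tumors 0 genes were called in every alternative, and of the named values 107 kept and 1 changed its sign, that of Ndufa4l2, which ranged from -0.078 to 0.66. A replicate block was tried under all 4 ways to pair metastases and primary tumors, and 0 genes were called (6 to 13 of 78 at an unadjusted p under 0.05, where 5.19 to 6.93% of all genes were), with medians of -0.327 to -0.319. The pairing is not given, so no block could be called the true one. Within CR tumors, 5 genes were called with no filter on low counts, where 1.18% of all genes were, and 0 to 8 as 1 tumor was left out, the 8 without primary CR2, where 1.11% of all genes were.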
